A study of Arabidopsis thaliana with 4 samples.

Results

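GRI (AT1G53130, GRIM REAPER) and RALFL25 (AT3G25165, ralf-like 25) are Arabidopsis thaliana genes for small secreted signalling peptides, and their ratios between agamous and wild-type inflorescences are described here on each of 4 arrays. They are 2 of the 5443 loci that had a probe assigned to 1 gene only, and each had 1 such probe. Both were picked because their ratios in this same contrast were large, so their values are given as a description and carry no test. Each of the 4 2-colour oligonucleotide arrays was hybridised with total RNA of agamous inflorescences in 1 channel and of wild-type inflorescences in the other, with the agamous RNA, per the labels, in channel 1 of arrays 1 and 3 but channel 2 of the other arrays. The labels name no agamous allele, accession or plant age, and do not say if plants were pooled or if separate plants were used for the 4 sets. The p-values cover the spread among arrays alone, which may be technical. AGAMOUS itself had no probe of its own, so the mutated gene gave no check of the labels.

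Small secreted peptides carry signals between plant cells through receptor kinases at the cell surface. GRI belongs to the family of STIG1, a stigma protein first described in tobacco. Its protein is cut in the extracellular space by the metacaspase MC9, and the released peptide binds the receptor kinase PRK5 and takes part in cell death that depends on reactive oxygen. RALF peptides, named for the rapid alkalinization of the medium around cells, are read by FERONIA and related receptor kinases, and members of the family act in the growth and reception of pollen tubes. AGAMOUS is the MADS-domain factor that specifies stamens and carpels, so that agamous flowers have petals and sepals in place of these organs.

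The ratios of GRI were large on every array but changed sign between arrays. As deposited, the log2 ratio between the channels was -4.67 on array 1, 5.32 on array 2 and 4.06 on array 3, and -5.11 was found on array 4. Arrays 1 and 4 thus lay on one side of 0 and arrays 2 and 3 on the other, although by channel the labels put array 3 with array 1. The mean of the deposited values was -0.10 ± 5.56 (SD, n = 4).

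RALFL25 divided the arrays in the same way. Its deposited log2 ratios were -3.83 and -3.46 on arrays 1 and 4, against 4.18 for array 2 and 4.43 for array 3, with a mean of 0.33 ± 4.59 (SD, n = 4). The same division was seen in correlations over all probes, though less strongly once values at the bounds were counted. Across all probes with values inside the bounds, Pearson's r of the deposited ratios was -0.66 for arrays 1 and 3. For arrays 2 and 4 it was -0.71. With all values it was -0.08 for arrays 1 and 3, and -0.45 for arrays 2 and 4. By the labels, each of these pairs had the agamous RNA in the same channel. The direction of the ratios is therefore not settled by the labels or by the deposited signs.

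The values below are also given as turned ratios, in which arrays 2 and 3 have the opposite sign. A negative turned ratio is read here as a lower level in agamous, because agamous flowers lack stamens and the anther markers given below were negative. Those markers were chosen with earlier results of these data known, so they do not settle the direction. With the opposite overall sign each lower value becomes a higher one of the same size. The turned signs were chosen from the same arrays, and the adjusted p-values of turned ratios do not cover that choice.

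The turned log2 ratios of GRI were -4.67, -5.32, -4.06 and -5.11 on arrays 1 to 4, a mean of -4.79 ± 0.56 (SD, n = 4) and a 27.6-fold difference between the RNAs. Those of RALFL25 were -3.83, -4.18, -4.43 and -3.46, a mean of -3.97 ± 0.42 (SD, n = 4) and a 15.7-fold difference. All 8 values lay well within the bounds of the table, which stops at log2 ratios of 6.64 in either direction (100-fold). In bulk RNA of inflorescences, fewer cells that express a gene and less RNA per cell cannot be told apart.

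**Figure D1:**
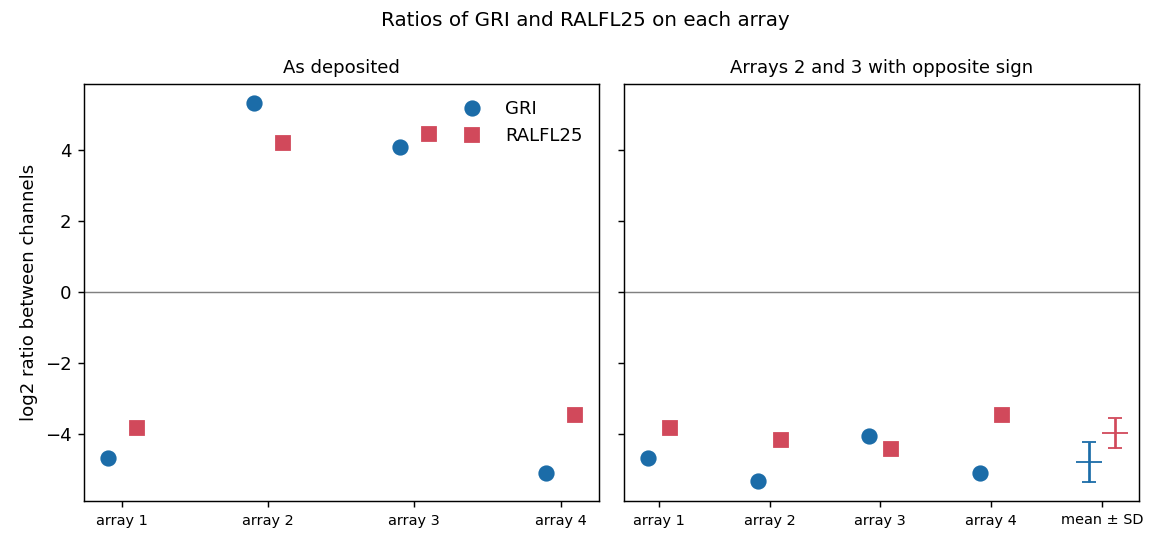
The log2 ratio between channels of GRI (circles) and RALFL25 (squares) is plotted for each array, as deposited on the left and with arrays 2 and 3 turned on the right, where bars show the mean ± SD (n = 4). The deposited values lie on opposite sides of 0, from -5.11 to 5.32, whereas the turned values lie between -5.32 and -3.46.

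GRI and RALFL25 differed in which array gave the larger ratio. The turned log2 ratio of GRI minus that of RALFL25 was -0.85 for array 1, -1.14 for array 2 and -1.65 for array 4. For array 3 it had the opposite sign, 0.37. Array 3 gave the smallest of the 4 sizes for GRI and the largest for RALFL25. The mean difference was -0.82 ± 0.86 (SD, n = 4), smaller than its spread between arrays.

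Among the 5369 loci with values on all 4 arrays, the mean turned ratio of GRI ranked 8 from the lowest and that of RALFL25 ranked 31. The loci ran from -6.25 to 5.00 with a median of 0.18. A mean of -3 or lower was found for 91 loci (1.69%), and one of -4 or lower for 28 (0.522%), a limit that GRI passed and RALFL25 just missed. Centring each array on its median moved the median of all features by -0.14, and GRI then had a mean of -4.92 and RALFL25 one of -4.11. Among the 87 loci with 4 values within the bounds and means from -6 to -3, the median SD over arrays was 0.559, with quartiles of 0.433 and 0.728. The SD of GRI lay near that median, with 48.3% of these loci below it, and that of RALFL25 lay under the lower quartile, with 21.8% below it.

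Empty features, which hold no probe, show what the arrays gave where no gene was measured. Of 352 empty features with 4 values, 0 had a mean turned ratio at or below that of RALFL25, and the lowest mean was -3.03. All 4 turned values were below 0 in 4 empty features (1.14%), against 16.5% of probed features. Empty features had a median of 1.83, and 49.7% of their values stood at a bound, compared with 2.12% of the values of probes. The negative ratios of GRI and RALFL25 thus lay on the opposite side of 0 from most empty features. Because both genes were picked for large ratios, this comparison describes them and is no test against background.

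**Figure D2:**
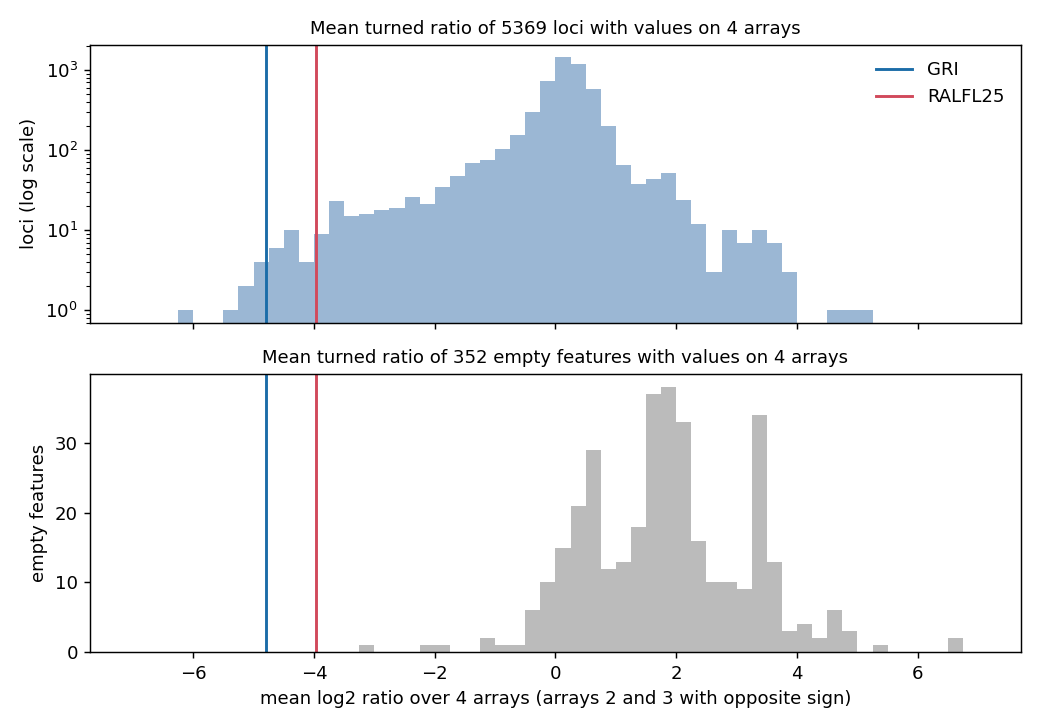
Histograms of the mean turned log2 ratio over 4 arrays are drawn for 5369 loci (upper panel, log count axis) and for 352 empty features (lower panel), with lines at GRI and RALFL25. Both lines stand in the lower tail of the loci, at -4.79 and -3.97, and to the left of every empty feature, of which the lowest is -3.03.

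Each gene was also listed for a second probe, and neither second probe followed the first. Probe A014844_01 lists GRI with AT5G55110 and AT4G26880 and therefore measures none of them by name. Its deposited ratios were 6.64, -0.82, -0.95 and 6.64 on arrays 1 to 4. Turned, all 4 values were above 0, opposite in sign to the probe of GRI alone on each array, and the values of arrays 1 and 4 stood at the bound, so that their size was not measured. Probe A012105_01 lists RALFL25 with RALFL26 and RALFL30. Its deposited ratios were 6.64, -0.44, -1.84 and 0.12, which again turn to 4 values above 0, with 1 at the bound. Values at a bound made up 49.7% of those of empty features, and whether these shared probes measured any RNA was not tested. The statements on GRI and RALFL25 therefore rest on 1 probe each, and whether a probe of either gene also takes up RNA of its relatives was not tested.

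RALFL genes other than RALFL25 had small ratios. The RALF family list held 34 loci, of which 4 beside RALFL25 were measured singly, and their median turned ratio was 0.25, against 0.15 for all 26100 features tested. RALFL34 had turned log2 ratios of 1.23, 0.61, 0.48 and 0.74 and a mean of 0.76 ± 0.33 (SD, n = 4, adjusted p = 0.0400, limma). It thus passed the test in the direction opposite to RALFL25. That call ended after median centring (adjusted p = 0.0634) and without array 1 (adjusted p = 0.0740), array 2 (0.131), array 3 (0.0775) or array 4 (0.101), and with array pairs averaged (0.142).

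The other 3 RALFL genes did not pass. RALFL27 had 0.17, 0.57, 0.53 and 0.36, all above 0, with a mean of 0.41 ± 0.18 (SD, n = 4, adjusted p = 0.0743, limma). RALFL32 had 0.11, 0.01, -0.16 and 0.43, and its mean of 0.09 changed sign after centring, to -0.04. RALFL22 had values between -0.11 and 0.12 on arrays 1 to 3 and -0.92 on array 4 (adjusted p = 0.434, limma). As deposited, none of these 4 genes passed limma's test, the lowest adjusted p being 1.0 and the lowest unadjusted p 0.283. None of the 4 had ratios near those of RALFL25, whose smallest size on any array, 3.46, exceeded the largest of the other 4 genes, 1.23.

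The STIG1 family list, which holds GRI and 5 loci assigned to it from general knowledge, had 2 further loci measured singly. The reference table gives neither a name. AT1G50650 had turned ratios of 1.12, 1.29, 1.01 and 6.64, the last at the bound. The mean, 2.51 ± 2.76 (SD, n = 4, adjusted p = 0.177, limma), rests on array 4. Without array 4 the mean was 1.14 and passed the test (adjusted p = 0.0240), as it did with bound values left out (adjusted p = 0.00693). AT1G11925 had turned ratios of -2.21, 1.16, 0.00 and -0.06 in array order and did not pass (adjusted p = 0.747). Neither locus had 4 turned values below 0, as GRI had.

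**Figure D3:**
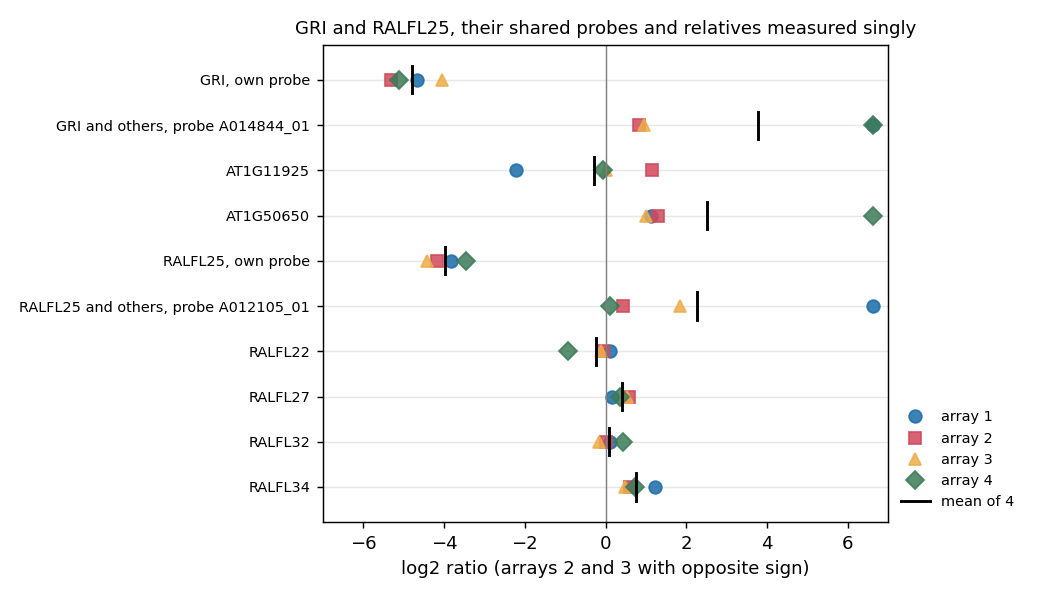
Turned log2 ratios on the 4 arrays (symbols) and their mean (black bars) are plotted for GRI, RALFL25, the probe each shares with relatives and the relatives measured singly. The own probes of GRI and RALFL25 lie between -5.32 and -3.46, whereas both shared probes lie above 0 (for A014844_01 the symbols of arrays 1 and 4 coincide at 6.64) and the 4 other RALFL genes lie between -0.92 and 1.23.

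Genes that read or process these peptides were mostly not measured singly. One list covers the receptor kinase family of PRK5, which binds the GRI peptide, and the metacaspase MC9, which cuts GRI. On it, 0 of 7 loci had a probe of their own. On the list of RALF receptors and co-receptors, 2 of 20 had one. FER, the FERONIA receptor kinase that binds RALF peptides, had turned ratios of 0.09, -0.06, -0.07 and -0.35 and a mean of -0.10 ± 0.19 (SD, n = 4, adjusted p = 0.567, limma). AT2G39360, which the reference table does not name, had 0.13, 0.43, 0.51 and -0.96 (adjusted p = 0.956), and its mean of 0.03 became -0.11 after centring.

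On the list of downstream and processing genes, 1 of 10 loci was measured singly. This was AT2G41970, without a name in the reference table, with turned ratios of -2.43, -2.20, -4.09 and -3.43. All 4 lay below 0, and the mean of -3.04 ± 0.88 (SD, n = 4) passed limma's test (adjusted p = 0.0110). With arrays 1 and 2 and arrays 3 and 4 averaged, the mean was the same and the call ended (adjusted p = 0.115).

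Among other secreted peptides and their receptors, 5 of 29 loci were measured, of which 2 passed. EC1.1, a small cysteine-rich protein that the egg cell secretes at fertilisation, had turned ratios of -0.85, -1.93, -0.74 and -1.55, a mean of -1.27 ± 0.57 (SD, n = 4, adjusted p = 0.0342, limma). Its call ended without array 1 (adjusted p = 0.0733), array 2 (0.110), array 3 (0.0607) or array 4 (0.0927), with a dye term (0.0641) and with array pairs averaged (0.0811). EMS1, the receptor kinase of the peptide TPD1 in anthers, had -1.32, -1.33, -1.35 and -1.39, the closest agreement between arrays of any list gene (adjusted p = 0.00232), and its call ended when array pairs were averaged (adjusted p = 0.0608).

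The peptides of vegetative and meristem tissues on that list did not pass. STOMAGEN, which promotes stomata, had 0.89, -0.19, 0.26 and 0.56 (adjusted p = 0.247, limma). CLE40, a CLE peptide of root and shoot meristems, had -0.32, -0.16, 0.95 and -0.03 (adjusted p = 0.767), and its mean of 0.11 became -0.02 after centring. CLV3, which restricts stem cells of the shoot meristem, had 6.64, at the bound, on array 1 and 0.37, 0.53 and -0.03 on arrays 2 to 4 (adjusted p = 0.338).

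Over all 6 lists, 14 genes beside GRI and RALFL25 were measured of 106 loci listed. In the turned reading 3 of the 14 were called lower (EMS1, AT2G41970 and EC1.1) and 1 higher (RALFL34), against 9.16% of all features called lower and 8.23% called higher by limma at an adjusted p under 0.05. After median centring the shares of all features were 10.2% and 3.37%, so that lower calls made up 75.2% of calls in place of 52.7%, and after centring and scaling they made up 73.0%. The median turned ratio of the 14 genes was 0.06, close to that of all features. As deposited, 0 of the 14 passed limma's test, with 0 at an unadjusted p under 0.05, and 0.226% of all features passed. The lists were drawn up with earlier results of these data known, and EMS1 and CLV3 were among those results.

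Probes listed for several genes add values without naming a gene. Of 22 such probes that list a gene of the 6 lists, 7 had all turned values below 0, against 18.2% of all probes with several genes, and 7 had all values above 0, against 29.8%. The 7 below 0 were 3 of the 7 receptor probes and 4 of the 6 probes of downstream and processing genes. The other 4 receptor probes had values of both signs. Some probes share loci and are not independent. A001862_01 and A022897_01 both list AT1G49490 and AT3G19020, and A008584_01 and A014175_01 both list AT4G33970 and AT2G15880. Receptor probe A025217_01 had a mean of -0.56, while A018257_01, which lists the same loci, had 0.4. Of the ligand families, 3 of 4 RALF probes and 3 of 3 STIG1 probes had all values above 0, and the remaining RALF probe had values of both signs. These probes also share loci. The STIG1 probes overlap in AT5G55110, AT4G26880 and AT1G50720, and RALF probes A009416_01 and A020265_01 list the same loci. Probes A014844_01 and A012105_01, described above, are among them. The difference between ligand and receptor probes was not tested. The following pair was chosen after its values were seen. Probe A010499_01, which lists FER with ANX1 and ANX2, had -3.52, -4.44, -3.75 and -3.38, whereas the probe of FER alone had a mean of -0.10. Probe A007135_01, which lists AT4G39110 and AT2G21480, had -1.60, -1.37, -1.41 and -1.54. This pair had the lowest means of the receptor probes, and the means of the remaining ones ran from -0.56 to 0.4.

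Markers of anther and pollen, carpel and ovule, and nectary had negative turned ratios, as GRI and RALFL25 had. The 7 markers were taken from the earlier description of these data, so their shared sign is no independent support for a direction. All had 4 turned values below 0. Their means ran from -4.99 for CES, a regulator of the transmitting tract, to -0.22 for SPL, which starts sporogenous cells. The median of the 7 was -1.52. SWEET9, the sugar transporter of nectaries, had a mean of -4.55 and ATA20, an anther gene, one of -2.83. GRI lay between CES and SWEET9, and RALFL25 between SWEET9 and ATA20. The part that lost organs have in the ratios of GRI and RALFL25 was not tested.

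**Figure D4:**
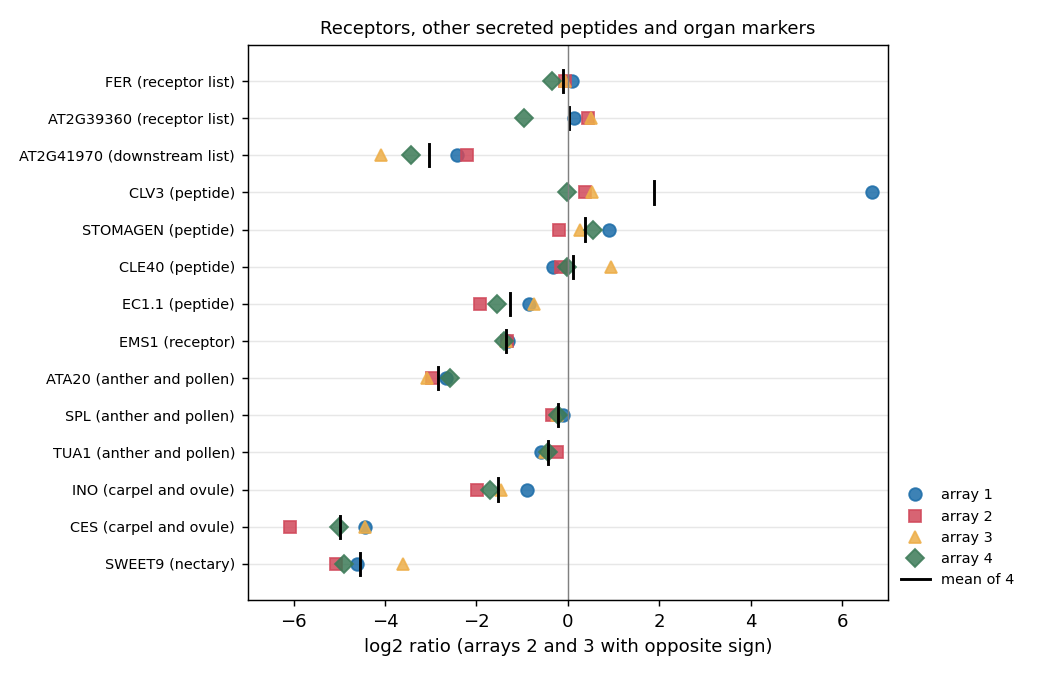
Turned log2 ratios on the 4 arrays (symbols) and their mean (black bars) are plotted for receptors, downstream genes, other secreted peptides and markers of anther and pollen, carpel and ovule, and nectary. The markers lie at means from -4.99 to -0.22, AT2G41970 at -3.04, EMS1 at -1.35 and EC1.1 at -1.27, and FER at -0.10.

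The genes whose 4 ratios were most like those of GRI were found by the root mean square difference over the 4 arrays, among 5144 loci with 4 values and none at a bound. The nearest was SWEET9, with a difference of 0.27 on the log2 scale and turned ratios of -4.62, -5.08, -3.61 and -4.90. It had its smallest size on array 3 and its largest on array 2, as GRI had. AT3G49270 (0.40), CES (0.44), AT3G52620 (0.65) and SWEET8 (0.68), another sugar transporter of the same family, followed. RALFL25 was the gene ranked 25 in likeness to GRI.

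For RALFL25 the nearest loci were AT3G51070, with turned ratios of -3.61, -4.44, -4.08 and -3.52, and AT1G30020, with -3.90, -4.46, -4.38 and -3.86, each at a difference of 0.25. AT3G21570 (0.29), AT4G12870 (0.31) and AT1G33430 (0.33) followed, all without a symbol in the reference table. The 5 had mean turned ratios between -4.15 and -3.77. GRI ranked 80 in likeness to RALFL25. These likenesses rest on 4 arrays.

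**Figure D5:**
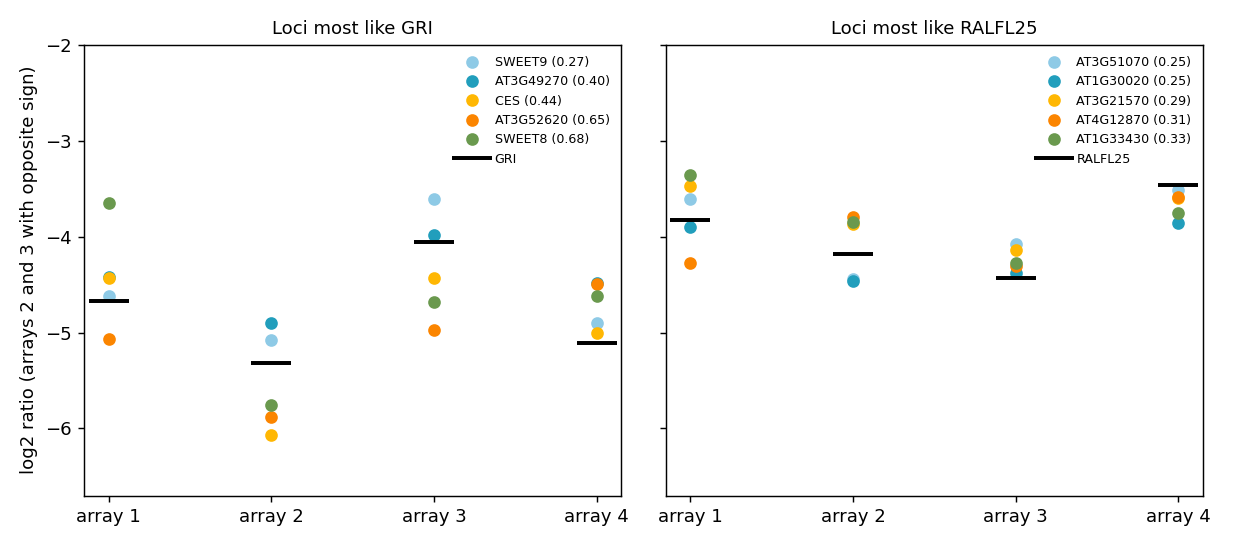
Turned log2 ratios on each array are plotted for GRI (left, black bars) and RALFL25 (right, black bars) with the 5 loci most like each (points, with the root mean square difference in log2 units in the key). SWEET9 stays within 0.45 of GRI on every array, and the loci nearest to RALFL25 lie between -4.46 and -3.36.

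The measured genes nearest to GRI and RALFL25 in the genome had small ratios. The gene order was taken from the RefSeq table of protein-coding genes, and the nearest measured locus on each side was used. Beside GRI, AT1G53120, the adjacent gene, had a mean turned ratio of 0.32 ± 0.09 (SD, n = 4, adjusted p = 0.0865, limma), and AT1G53200, 8 genes away, had 0.54 ± 0.09 and was called higher (adjusted p = 0.0282). Beside RALFL25, AT3G25160, the adjacent gene, had -0.25 ± 0.39 (adjusted p = 0.363), and AT3G25210, 5 genes away, had 0.48 ± 0.06 and was called higher (adjusted p = 0.0338). Of all features, 8.23% were called higher, and 3.37% after median centring. The calls of these neighbours after centring are not given here. The largest size among these 4 means was 0.54, against 3.97 for RALFL25 and 4.79 for GRI.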

How the data were processed

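Inflorescence RNA of agamous and wild type was compared on 4 2-colour arrays in 1 group, and each array gives 1 ratio. The authors deposited log2 ratios, which the labels say were normalized by the method of an earlier publication, without giving its steps. That the scale is log2 was inferred from signed values centred near 0 that end at 6.64 in both directions. Which channel is the numerator, the centring beyond the array medians (0.16, -0.14, -0.11 and 0.13) and the turning of swapped arrays are not stated. Scanner signals were not used here, and all 4 columns were used.

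Of 26933 features, 26474 were probes, and the tests left out 424 empty and 35 control features. Gene names came from the platform annotation: 5784 probes had 1 gene, 7497 several and 13193 none listed. All 5784 matched a RefSeq locus of assembly TAIR10.1 by gene identifier or symbol, 5443 loci in all. Probes of 1 locus were averaged (284 loci), which gave 26133 features. No coordinates are printed, because no build is named for the probes.

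Features with values on at least 3 arrays were tested against 0, two-sided, with limma 3.58.1 (R 4.3.3). P was adjusted over all features by Benjamini-Hochberg with a threshold of 0.05. The procedure was tried on simulated ratios with known array signs and no limit set on false calls, so the choice of signs was not covered. GRI and RALFL25 were not tested. The number of arrays limits the precision. Members, lists and markers were chosen with earlier results of these data known. Named genes are every measured RALFL gene and list gene, the 5 loci nearest in ratio to GRI and to RALFL25, and their nearest measured neighbours. Alternatives were other signs of the arrays, centring, scaling, quantile normalization, values at the bounds as missing, each array left out, averaged array pairs, a dye term, single probes and 4 values required.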

Additional observations from a re-analysis of the deposited data

Results flagged for a closer look

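In 2 of 34 genes checked, 1 array lay far from the other 3, by Dixon's ratio of the gap to the whole range; chance alone gives about 5% of groups such a gap. AT1G50650, on the STIG1 family list, had a turned ratio of 6.64 on array 4, at the bound, and 1.01 to 1.29 on the other arrays. CLV3 had 6.64 on array 1, also at the bound, and -0.03 to 0.53 on the others. Neither GRI nor RALFL25 had such an array.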

How the results depend on the processing

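GRI and RALFL25 depended on the sign given to the arrays. GRI averaged -0.10 as deposited and -0.21 turned by the labels (arrays 2 and 4), and RALFL25 0.33 and -0.03. Under every other alternative run for them, both moved by less than 1 SD, but most of these could do no more. With 1 probe and 4 values inside the bounds, missing bounds, averaged pairs, single probes and 4 required values return the same mean. Leaving out 1 of 4 arrays cannot move a mean by 1 SD. Centring gave -4.92 for GRI and -4.11 for RALFL25, scaling as well -4.95 and -4.16, and quantile normalization -4.90 and -4.24. With each array left out in turn GRI had -5.03 to -4.61 and RALFL25 -4.14 to -3.82.

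List genes called numbered 4, against 0 as deposited, 0 turned by the labels, 0 with averaged array pairs and 2 to 3 with an array left out. EMS1 and AT2G41970 passed with each array left out, RALFL34 and EC1.1 lost their calls whichever array was left out, and the additional call without array 4 was AT1G50650. Features called lower numbered 2392, against 0 as deposited, 0 turned by the labels, 721 with averaged pairs and 1020 to 1620 with an array left out. Without array 2 lower calls numbered 1020 and higher calls 64. Features called higher numbered 2147, against 59 as deposited, 0 turned by the labels, 880 after centring, 995 after centring and scaling, 1367 by quantile normalization, 1360 with a dye term, 88 with averaged pairs and 64 to 497 with an array left out. The causes were not tested.

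Means that changed sign were, as deposited, RALFL27 (-0.14), AT2G39360 (-0.44), AT2G41970 (0.11), CLE40 (-0.29) and EC1.1 (0.07). Turned by the labels they were RALFL22 (0.28), RALFL27 (-0.03), RALFL32 (-0.04), AT1G50650 (-1.31), FER (0.11), AT2G41970 (0.72), STOMAGEN (-0.03), CLE40 (-0.35) and EMS1 (0.02). Centring turned RALFL32 (-0.04), AT2G39360 (-0.11) and CLE40 (-0.02), and scaling as well turned RALFL32 (-0.04) and AT2G39360 (-0.12). With an array left out, AT1G11925 ran from -0.76 to 0.36, AT2G39360 from -0.13 to 0.36, CLE40 from -0.17 to 0.25 and RALFL32 from -0.02 to 0.18. Each ratio already pairs agamous with wild-type RNA on 1 array, and no further pairing was used because the 4 arrays form 1 group.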
